A study of Homo sapiens with 5 samples.

Results

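The data described here are the H3K27ac summits of HCT116 cells, a human colorectal cancer cell line, after a control siRNA and after an siRNA targeting ENO1-IT1. ENO1-IT1 is a long noncoding transcript, called so because it is placed in an intron of ENO1, the gene for the glycolytic enzyme enolase. Every summit of both H3K27ac lists was taken, 61268 of the 209263 summits in the 5 lists of the series. The control list held 29429 summits and the knockdown list 31839. The other lists were KAT7 summits from the same treatments, with 122439 control and 24611 knockdown summits, and 945 summits of input DNA, whose label does not name an siRNA. Cells of all groups were at passage 16 to 19, and chromatin was taken 48 h after transfection. The growth and treatment notes name no replicate, and each group held 1 library. All differences therefore describe these libraries, and none could be tested against replicate error. Transcript levels were not part of the lists, so loss of ENO1-IT1 itself was not checked, and groups rest on the sample titles alone. The peak names of both H3K27ac lists begin with KO, that of the list titled control included, and do not settle which cells received which siRNA. Were the titles exchanged, each direction given here would be reversed.

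Acetylation of lysine 27 of histone H3 is placed mainly by the acetyltransferases EP300 and CREBBP and is removed by histone deacetylases. It marks the nucleosomes that flank active promoters and enhancers, often on both sides of the nucleosome-poor DNA where transcription factors bind. Strong enhancers of cancer cells can carry the mark over many kilobases. A summit is the point of highest read pile-up that the peak caller reported for a peak. The deposited lists give 1 summit per numbered peak and no peak width, so a wide acetylated region and a narrow one look alike, and a peak with several maxima is represented by 1 position.

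Each summit carried a score, a -log10 p or q value from the peak caller MACS2. Such a score grows with sequencing depth, and library depth is unknown here, since read counts are not part of the lists. The scores served to rank summits within a list and to set score classes and minimums. The same minimum does not reach equally far down both lists. A score of at least 20 was held by 2961 control and 5507 knockdown summits. The median score was 7.14 in the control list and 8.02 in the knockdown list, and the highest was 485 and 727. The scores were coarse, with 1335 distinct values among the control summits and 1631 among the knockdown summits. The most frequent value was shared by 1184 control summits and by 865 knockdown summits, so that many ranks below were tied, and tied summits took their mean rank. The scales of the lists differ, so these values do not show stronger acetylation in either condition.

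Both lists marked largely the same stretches of the genome, but with different numbers of summits. To see this, the summits of both lists were chained along the hg19 genome wherever neighbours lay at most 1000 bp apart. This gave 28696 stretches, of which 18885 (65.8%) held summits of both lists, 2977 (10.4%) control summits only and 6834 (23.8%) knockdown summits only. The stretches of both lists took in 26235 control summits, 89.1% of that list, and 24480 knockdown summits, 76.9% of that list.

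The near-equal list lengths hid differences in opposite directions. Within the stretches of both lists, the control list was the longer, with 1.39 summits per stretch against 1.30 after knockdown. In 3606 of these stretches the control had more summits, in 2160 the knockdown had more, and in 13119 the numbers were equal. Outside them the knockdown list was the longer, with 7359 summits against 3194. Thus the control list divided shared stretches more finely, and the knockdown list held more stretches of its own.

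**Figure D1:**
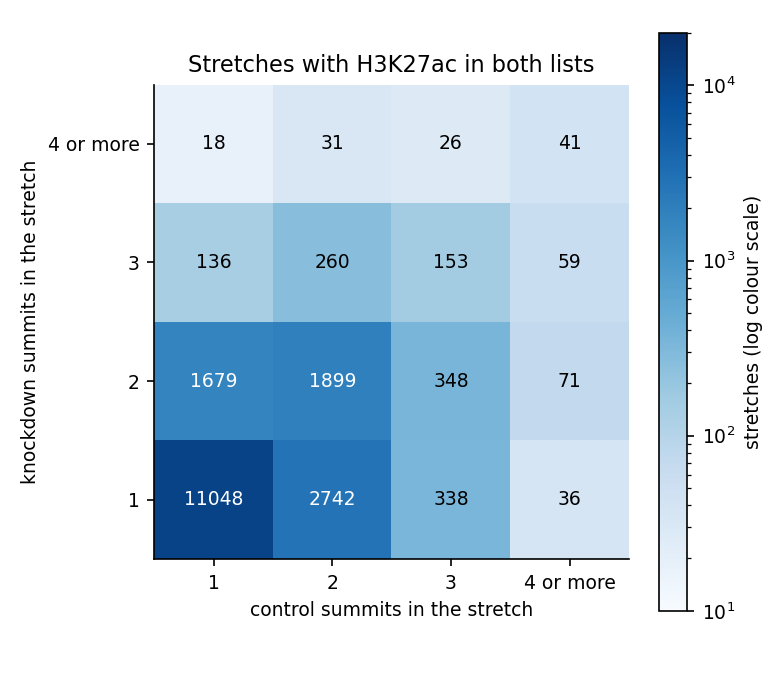
Number of stretches with H3K27ac summits of both lists, by the number of control summits (horizontal axis) and of knockdown summits (vertical axis) in the stretch, with the colour on a log scale. The commonest kind by far held 1 summit of each list (11048 stretches), and the 2742 stretches with 2 control and 1 knockdown summit outnumbered the 1679 of the opposite kind.

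The finer division was also seen within each list. Of the gaps between neighbouring control summits, 22.5% were at most 1000 bp, against 15.9% of those between knockdown summits. The shortest gap between control summits was 147 bp and that between knockdown summits 168 bp. The lower quartile of the gaps was 1130 bp for control summits and 1856 bp for knockdown summits, and the medians were 12812 and 16209 bp.

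The order of the counts depended on the score of the stretch. Stretches of both lists were divided into 5 classes of like size by their best control score. In the highest class, 702 of 3825 stretches had more control summits and 167 had more knockdown summits. In the lowest class the order was turned, with 397 and 636 of 3772 stretches. Divided by the best knockdown score, the highest class gave 705 and 180 stretches and the lowest 469 and 584.

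In the stretches with 2 control summits and 1 knockdown summit, the control summits lay a median of 647 bp apart. The knockdown summit lay within 100 bp of one of them in 47.7% of the 2742 stretches. In 30.2% it lay between them and more than 100 bp from each. Where neither scores nor distances were tied, it was nearer to the higher-scored control summit in 71.1% (95% interval 69.4 to 72.8%, counting error only) of 2680 stretches. The 1679 stretches with 1 control and 2 knockdown summits gave similar shares. There the knockdown summits lay a median of 693 bp apart, the control summit lay within 100 bp of one in 45.6%, and it was nearer to the higher-scored one in 75.9% (73.8 to 78.0%) of 1640.

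The stretches named here for the greatest excess of summits in 1 list had best scores from 4.40 to 15.4, well below those of the strongest sites. The best scores of the other stretches with the same excess are not given. The greatest knockdown excess was on chromosome 12 from 65065001 to 65069907, with 7 knockdown summits scoring 4.04 to 10.9 and 2 control summits scoring 3.54 and 9.21. An excess of 4 was found in 5 stretches. Among them, the stretch on chromosome 17 from 59492249 to 59494633 held 5 knockdown summits and 1 control summit. On chromosome 3, the stretch from 46975026 to 46977358 held 4 knockdown summits, none scoring above 4.40, and no control summit. The greatest control excess was also 4 summits, found in 10 stretches. In genome order these began with the stretch on chromosome 2 from 182768690 to 182771180, with 4 control summits of score up to 15.4 and no knockdown summit, and the stretch on chromosome 2 from 227533870 to 227536033, with 4 control summits of score up to 7.49. The next, on chromosome 3 from 98305980 to 98308901 held 6 control and 2 knockdown summits.

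Most control summits without a partner in the other list lay within 2000 bp of a summit of it, whereas many such knockdown summits lay far from any. A summit was called matched when the other list had a summit at most 500 bp away. In the control list 8281 summits (28.1%) were unmatched, and in the knockdown list 11352 (35.7%). Of the control summits, 15.4% had their nearest knockdown summit at 501 to 1000 bp and another 6.19% at 1001 to 2000 bp. Together these were 76.7% of the unmatched control summits. Of the unmatched knockdown summits, 47.0% lay at 501 to 2000 bp and 42.0% beyond 5000 bp. Only 1182 control summits (4.02%) had no knockdown summit within 5000 bp. Of the knockdown summits, 4770 (15.0%) had no control summit within that distance, and 1830 (5.75%) had none within 50000 bp, against 406 (1.38%) of the control summits.

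**Figure D2:**
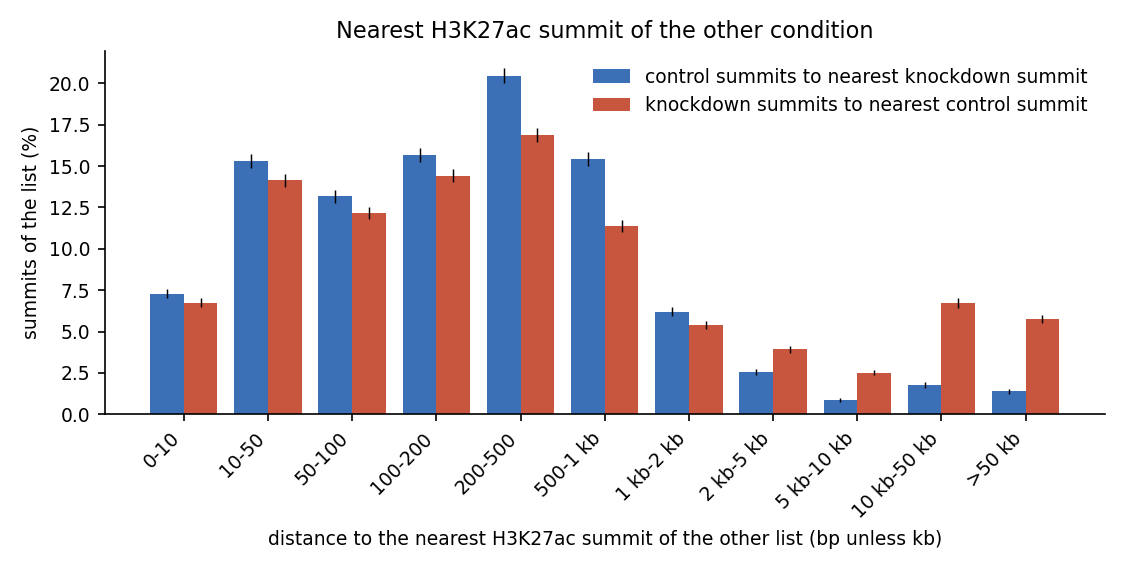
Share of each list (vertical axis, in percent, with exact 95% intervals that cover counting error only) by the distance from a summit to the nearest H3K27ac summit of the other list (horizontal axis, classes in bp or kb). The control list has the higher share in every class up to 2 kb and the knockdown list in every class beyond it, with 6.72% against 1.76% at 10 to 50 kb.

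Most of the summits far from the other list were weak calls. The 1830 knockdown summits more than 50000 bp from any control summit had a median score of 4.93, and the 2146 within 10 bp of a control summit had a median of 13.8. Of the 4770 knockdown summits beyond 5000 bp, 175 scored at least 10 and 6 at least 20. Of the 1182 such control summits, 43 scored at least 10 and 19 at least 20. In the knockdown list, 29.5% of the 11888 summits ranked after the first 20000 lay beyond 5000 bp of the control list, but 1 of the 4008 ranked from 1001 to 5000 did. Of the 400 ranked from 101 to 500, 5 did. In the control list, 8 of the 399 ranked from 101 to 500 and 13 of the 3986 ranked from 1001 to 5000 lay that far from the knockdown list.

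Matching did not climb steadily with score. In the control list, 97 of the 100 highest-scored summits (97.0%, 91.5 to 99.4%) were matched. The share was 83.2% (79.2 to 86.7%) for ranks 101 to 500, 79.1% (75.2 to 82.6%) for ranks 501 to 1000 and 81.3% (80.2 to 82.4%) for ranks 5001 to 10000. In the knockdown list the same classes gave 98.0%, 84.3%, 84.9% and 90.3% (89.5 to 91.1%). For ranks 10001 to 20000 the share was 74.1% in the control list and 73.7% in the knockdown list, and for the ranks after them 59.7% and 36.1%. In both lists the summits of ranks 101 to 1000 were thus matched less often than the first 100, and in the knockdown list also less often than those of ranks 5001 to 10000.

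**Figure D3:**
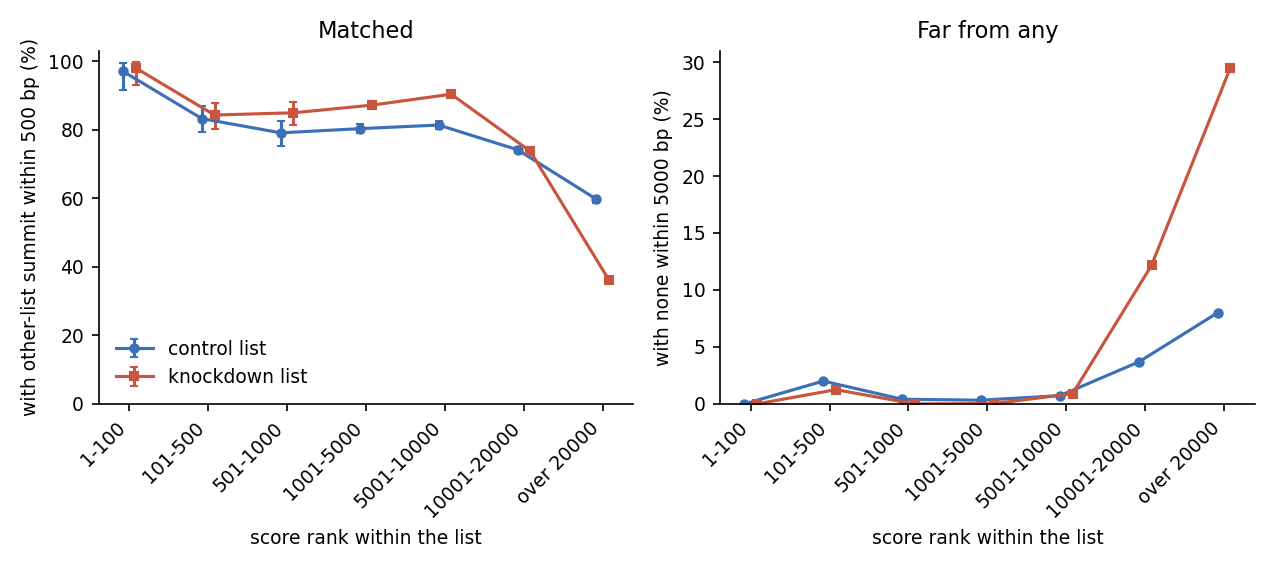
Left, share of summits matched within 500 bp in the other list, with exact 95% intervals (counting error only). Right, share with no summit of the other list within 5000 bp. Both are in percent, against classes of score rank within the list, where rank 1 is the highest score. The matched share dips after the first 100 ranks in both lists, and the share far from any summit reaches 29.5% in the lowest knockdown class.

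Many of the strong unmatched summits had a strong summit of the other list some way along the same region. Among the 1000 highest control ranks 172 summits were unmatched, and 0 of the 172 lacked a knockdown summit within 20000 bp, which allows a share of up to 1.74%. Over all 29429 control summits, 3.14% had none within 10000 bp and 1.38% none within 50000 bp. The 0 is therefore not shown to be particular to strong unmatched summits. For 128 of the 172 (74.4%, 67.2 to 80.8%), a knockdown summit which itself ranked within the first 1000 lay within 20000 bp. Among the 1000 highest knockdown ranks the like number was 102 of 140 unmatched summits (72.9%, 64.7 to 80.0%). For the control list this was so for 64 of 67 unmatched summits of ranks 101 to 500 and for 61 of 102 (59.8%) of ranks 501 to 1000. For the knockdown list it was 57 of 63 and 43 of 75 (57.3%). Of the matched summits among the first 1000 ranks, the same held for 75.9% of 814 control and 73.5% of 857 knockdown summits. Matched summits are no standard here, because their own partner counts. Whether the shares of the unmatched summits exceed the usual clustering of strong summits was not tested. This comparison was chosen after the results had been seen.

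Among the 100 highest-scored control summits the 3 unmatched ones showed the same arrangement to different degrees. Those on chromosome 1 at 8937810 (score 191, rank 26) and at 8935949 (score 112, rank 71) lay 1163 and 659 bp from knockdown summits, which ranked 938 and 23854.5 in their list. The other, on chromosome 10 at 114277890 (score 95.6), lay 946 bp from a knockdown summit of score 97.6 and rank 121. The chromosome 1 summits were thus the only ones of the 3 whose nearest knockdown summit ranked far lower.

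Summits with none of the other list within 5000 bp gave the clearest examples. The control summit on chromosome 3 at 111642708 scored 76.6 and ranked 137, and the nearest knockdown summit, at 111635777, scored 85.9 and ranked 154. They lay 6931 bp apart. The control summit on chromosome 9 at 21560358 (score 50.2) and the knockdown summit at 21566917 (score 61.9) were 6559 bp apart and ranked 300 and 329. On chromosome 3, the control summit at 98690722 ranked 221, and the knockdown summit at 98697110, 6388 bp away, ranked 138. In that region the control list had a further summit at 98695742 (score 58.1, rank 223), 5020 bp from the first and 1368 bp from the knockdown summit. These regions were in both lists at like ranks. In the chromosome 9 region and the first chromosome 3 region the listed positions were several kilobases apart, and in the other a like-ranked control summit stood nearer.

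On chromosome 8 the pattern was less simple. The control list had a summit at 126677214 with a score of 72.0, and the knockdown list had one at 126668688 with a score of 101. They were 8526 bp apart, and a further summit was common to both lists, at 126691904 in the control (score 66.0) and 126691878 after knockdown (score 78.2). The fifth control summit of this kind, on chromosome 7 at 130572701 (score 47.7, rank 338), had its nearest knockdown summit 10165 bp away with a score of 12.4. Of the knockdown summits without a control summit within 5000 bp, the highest on chromosome 2, at 182648595 (score 101), lay 6548 bp from a control summit of score 80.8, and that on chromosome 18, at 3617832 (score 92.1), lay 6905 bp from a control summit of score 58.4. None of these 10 summits had a KAT7 summit of either list within 2000 bp. The nearest was a control KAT7 summit 2625 bp from the knockdown summit on chromosome 8. The share of all H3K27ac summits with KAT7 within 2000 bp was not counted. Within 500 bp, only 16.7% of the matched control summits had a control KAT7 summit, so its absence is not shown to be particular to these 10.

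**Figure D4:**
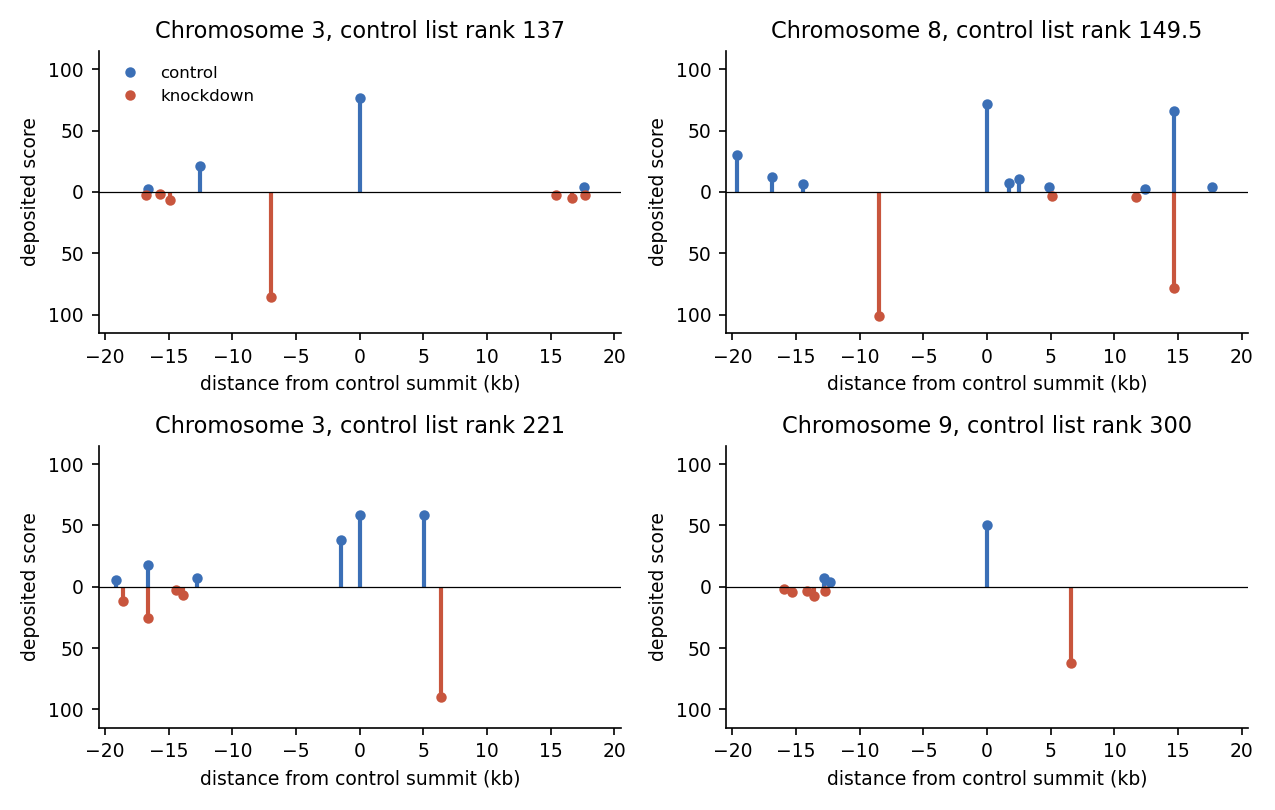
H3K27ac summits within 20 kb of the 4 highest-scored control summits that had no knockdown summit within 5 kb. The horizontal axis is the distance from that control summit in kb, and the vertical axis the deposited score, drawn upward for control summits and downward for knockdown summits. Scores of the lists are not on a common scale. In each window a knockdown summit of high rank stands 6.388 to 8.526 kb from the central control summit, and in the second chromosome 3 window another control summit of high rank stands between them.

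Where a summit of each list was the nearest to the other and they lay at most 500 bp apart, they were taken as a pair. There were 19946 pairs, 67.8% of the control and 62.6% of the knockdown list. Their positions showed no common offset. The knockdown summit lay at the higher coordinate in 9895 pairs, at the lower in 9897 and at the same base in 154, and the median signed difference was 0 bp. The median distance was 92 bp, 33 bp at the lower and 196 bp at the upper quartile.

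The distance was shorter at high ranks. Pairs were ranked by the control score among the pairs alone, so that ranks of both lists run over the same sites. The 100 highest had a median distance of 10 bp, and 85.0% of them lay within 25 bp. The median was 26 bp for ranks 101 to 500, 67 bp for ranks 501 to 1000 and 110 bp for ranks beyond 10000. A distance above 250 bp was found for 3 of the first 100 pairs and for 19.1% of those beyond rank 10000.

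This closeness of the highest-ranked pairs went with KAT7. Of the 100 highest pairs, 90 had a KAT7 summit within 500 bp in both KAT7 lists, against 12.2% (11.7 to 12.6%) of all pairs. The median distance between the H3K27ac summits was 16 bp for the 2430 pairs with KAT7 in both lists and 104 bp for the other 17516. For ranks 101 to 500 the medians were 9 bp (197 pairs) and 82 bp (209 pairs), and beyond rank 10000 they were 23 bp and 116 bp. Input DNA also had a summit within 1000 bp at 9 of the first 100 pairs and at 36 of all 19946. The part of either in the shift was not tested.

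The order of the sites was largely kept between the lists. Across the 19946 pairs, control and knockdown ranks had a Spearman rho of 0.76. This is a description across sites of 2 libraries, and sites are not independent replicates. Of the 100 pairs with the highest control scores, 85 were also among the 100 with the highest knockdown scores. When ranks were divided into 4 equal classes, 52.5% of the pairs stood in the same class in both lists, 39.7% in neighbouring classes and 0.371% (74 pairs) in the highest class of one list and the lowest of the other. The middle classes mixed most, with 42.6% and 37.3% of pairs remaining in the second and the third class, against 74.7% in the highest.

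**Figure D5:**
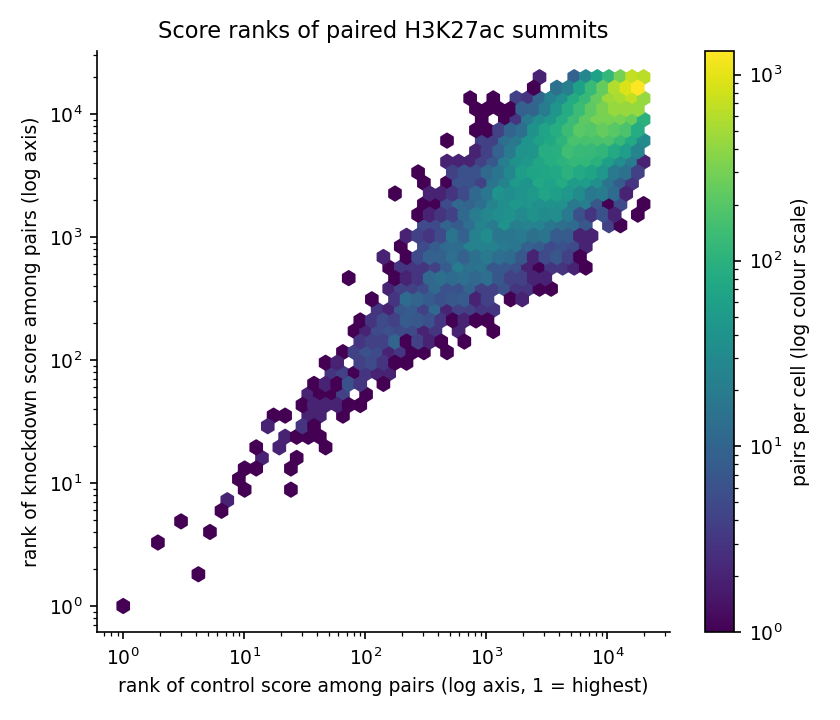
Rank of the knockdown score against rank of the control score for the 19946 pairs of H3K27ac summits, both on log axes with rank 1 the highest score, coloured by the number of pairs per cell on a log scale. The highest-scored pairs lie close to the diagonal, and the spread of ranks is wide from about rank 100 on.

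At the top, 9 of the 10 highest-scored pairs were the same in both lists. The highest in both lay on chromosome 11 at 11268273 in the control (score 485) and at 11268261 after knockdown (score 727). The pair on chromosome 10 at 132158641 and 132158655 ranked 6 in both. Those on chromosome 8 at 22254006, chromosome 22 at 37725055 and chromosome 12 at 124577598 ranked 7, 8 and 9 in the control and 8, 7 and 11 after knockdown. The pair on chromosome 2 at 33141512 ranked 10 and 9 and was the only one of the control's first 10 with an input summit within 1000 bp, 120 bp away with a score of 10.4. The exception after knockdown was the pair on chromosome 2 at 88480807, which ranked 24 in the control and 10 after knockdown. A KAT7 summit lay within 500 bp in both KAT7 lists at all of the control's first 10 pairs other than that on chromosome 15.

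Some strong sites stood much lower in one list than in the other. Among pairs within the first 1000 of either list, the site that stood lowest after knockdown relative to the control was on chromosome 22 at 24407565, with rank 737 in the control (score 32.5) and rank 13237 after knockdown (score 8.21). The H3K27ac summits lay 4 bp apart. KAT7 had a summit within 14 bp in both conditions there, with a control score of 11.4 and a knockdown score of 105. The next, on chromosome 18 at 31961645, ranked 828.5 and 11394, its H3K27ac scores being 31.2 and 9.94. Its KAT7 summits were 23 and 13 bp away and scored 6.02 in the control and 68.3 after knockdown. At these sites a low H3K27ac rank thus stood beside a high-scored KAT7 summit in the knockdown lists. The KAT7 lists have no common score scale, and a higher knockdown KAT7 score was not particular to these sites. It was also found at the control's first 10 pairs, whose H3K27ac ranks differed little, apart from that on chromosome 2 at 33141512 (60.9 in the control and 17.7 after knockdown).

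The other 3 sites of this kind had no knockdown KAT7 summit within 500 bp. They were on chromosome 11 at 65307628 (rank 964 in the control and 8683 after knockdown), chromosome 1 at 8101110 (969 and 7861) and chromosome 11 at 65819315 (885 and 6991.5). In the first and second of these the summits were 462 and 499 bp apart, close to the limit for a pair.

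In the other direction, the site on chromosome 1 at 43473915 ranked 7386.5 in the control (score 9.80) and 562 after knockdown (score 48.6). The site on chromosome 5 at 151150650 ranked 6895.5 and 825. It was followed by chromosome 16 at 68956158 (6336.5 and 647), chromosome 1 at 35734505 (5952.5 and 832.5) and chromosome 8 at 145754278 (5431 and 565.5). The summits of these 5 pairs were 10 to 202 bp apart. At 4 of the 5 neither KAT7 list had a summit within 500 bp, and the chromosome 5 site had a knockdown KAT7 summit of score 5.79 at 422 bp.

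Over all 1293 pairs within the first 1000 of either list, 53 stood more than 2000 ranks lower after knockdown and 64 more than 2000 ranks higher. A knockdown KAT7 summit lay within 500 bp of 24 of the 53 (45.3%, 31.6 to 59.6%), of 7 of the 64 (10.9%, 4.51 to 21.2%) and of 36.0% of the 1293. These intervals cover counting error only.

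Some strong pairs had summits 250 to 500 bp apart, 121 of the 1005 within the first 1000 control ranks (95% interval 10.1 to 14.2%). Such distances were not particular to strong pairs. They were found for 3494 of all 19946 pairs, and for 19.1% of those beyond control rank 10000, a higher share than among the strong pairs. The strongest such pair was on chromosome 9, at 136429047 in the control (rank 16) and 136429534 after knockdown (rank 32), 487 bp apart. The KAT7 summits nearest to the control H3K27ac position lay likewise apart, at 136429000 in the control and 136429515 after knockdown. On chromosome 5 the summits at 11816882 and 11817351 ranked 47 and 58. There the KAT7 summits nearest to the control position, 11817236 in the control and 11817535 after knockdown, lay 354 and 653 bp from it. The following pairs were on chromosome 8 at 94891889 and 94892173, on chromosome 8 at 126698406 and 126698810 and on chromosome 22 at 30606045 and 30605766. The H3K27ac ranks of these pairs differed by at most 21.

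Rank differences were not shared by neighbouring sites. For neighbouring pairs at most 2000 bp apart, the differences between control and knockdown rank had a Spearman rho of -0.03 (3028 neighbours), and 50.5% had the same sign. For neighbours 2001 to 10000 bp apart rho was 0.01. No stretch-wide tendency was therefore visible in these values, which are descriptions across sites.

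The chromosomes were much alike, with chromosome X somewhat apart. The share of control summits matched ran from 68.0% (65.9 to 70.0%) on chromosome 17 to 76.6% (73.4 to 79.6%) on chromosome X among chromosomes 1 to 22 and X. The share of knockdown summits with no control summit within 5000 bp was lowest on chromosome 19, at 11.7%, and highest on chromosome X, at 21.0%. Of the 539 pairs on chromosome X, 43.4% stood higher after knockdown, against 46.2% to 51.5% on chromosomes 1 to 22. In stretches of both lists the control had more summits per stretch on all 23 chromosomes counted, from 1.43 against 1.41 on chromosome X to 1.39 against 1.23 on chromosome 21. Chromosomes of 1 library are not replicates, so this common direction adds no support.

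Control summits far from the knockdown H3K27ac list lay near KAT7 of either condition more often than matched ones. Over all scores, knockdown summits far from the control list did so for knockdown KAT7 but not for control KAT7. KAT7, also called HBO1, is a MYST-family acetyltransferase that acylates mainly other lysines of histones H3 and H4, and the lists show where it was immunoprecipitated. Of the 1182 control H3K27ac summits without a knockdown summit within 5000 bp, 25.6% (23.2 to 28.2%) had a control KAT7 summit within 500 bp and 34.3% (31.6 to 37.0%) a knockdown KAT7 summit. The matched control summits gave 16.7% and 15.2%, and those with the nearest knockdown summit at 501 to 5000 bp gave 7.48% and 4.87%. Of the 4770 knockdown H3K27ac summits beyond 5000 bp, 16.8% (15.8 to 17.9%) had a control and 22.3% (21.2 to 23.6%) a knockdown KAT7 summit. The matched knockdown summits gave 17.1% and 15.6%, so that over all scores the share near control KAT7 was no higher far from the control list. Thus the control H3K27ac summits beyond 5000 bp lay near KAT7 of the knockdown list more often than near KAT7 of their own condition. For control summits at 501 to 5000 bp the order was the reverse.

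The difference for knockdown KAT7 held at like scores. Among control summits scoring 5 to under 10, a knockdown KAT7 summit lay within 500 bp of 55.2% (49.9 to 60.4%) of the 366 beyond 5000 bp and of 15.2% of the 7867 matched ones. Among knockdown summits with such scores, the shares were 32.4% (30.3 to 34.6%) of 1831 and 14.5% of 6313. For control KAT7 these knockdown summits gave 25.2% (23.3 to 27.3%) and 15.6%, so at these scores that share was also higher far from the control list. For knockdown summits scoring under 5, the control KAT7 shares were 9.91% and 9.46%. The knockdown KAT7 list was much the shorter of the KAT7 lists. The part of list length and of peak calling in these shares was not tested. Input summits were rare in the single-list stretches, within 1000 bp of 5 of the 2977 with control summits only and of 4 of the 6834 with knockdown summits only.

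Single-list stretches with a best score of at least 20 carried little KAT7, but knockdown-only stretches scoring 10 to under 20 did not share this. Of the 231 control-only stretches with a best score of at least 20, 14 (6.06%, 3.35 to 9.96%) had a control KAT7 summit within 500 bp. A knockdown KAT7 summit lay that near in 5 of the 231 (2.16%, 0.706 to 4.98%). In control-only stretches with a best score of 10 to under 20 the shares were 11.8% for control and 10.5% for knockdown KAT7. Of the 197 such knockdown-only stretches, 10 (5.08%, 2.46 to 9.14%) had a knockdown KAT7 summit. The stretches of both lists with a best score of at least 20 in either list gave 25.6% for control and 22.4% for knockdown KAT7. Those with a best score of 10 to under 20 gave 21.3% and 17.7%. Ranked within their own list, 14.7% (13.5 to 16.0%) of the control-only stretches held a summit among the highest-scored 25% of the control list. For the knockdown-only stretches the share in the knockdown list was 3.59% (3.16 to 4.05%).

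Matching also differed with the distance to the next summit of the same list. Among control summits scoring at least 10, 93.7% of the 1332 with no other control summit within 50000 bp were matched, against 71.4% of the 2647 whose nearest control neighbour lay at 1001 to 5000 bp. In the knockdown list these shares were 91.1% of 2104 and 83.3% of 3625. Where the nearest neighbour lay within 1000 bp, the shares were 79.7% of 3059 control and 89.8% of 2924 knockdown summits, and at 5001 to 50000 bp they were 87.2% and 89.2%. The class at 1001 to 5000 bp was thus the lowest in both lists, and the spread was narrower after knockdown.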

How the data were processed

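ChIP-seq summit lists of 5 libraries were used, 1 per group, grouped by sample title. Per the submitters' processing notes, the alignment used Bowtie and hg19, and MACS2 called the peaks. For versions, options and the calling control, no source used here gives a value. The authors deposited each summit with a score, the -log10 p or q value of MACS2, without saying whether p or q. Depth per library is unknown.

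Nearest summits, mutual nearest pairs (at most 500 bp apart), chained stretches (gaps of at most 1000 bp) and ranks (ties averaged) were computed with SciPy 1.17.1, pandas 2.3.3 and numpy 2.4.6 under Python 3.11.15. Plots used matplotlib 3.10.9. Positions count from 1. The code was tested on simulated lists. Shares carry exact Clopper-Pearson 95% intervals, which cover counting error only. PCR copies and neighbouring summits are not independent. No test was run, because each group held 1 library.

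Regions named are the 10 highest pairs of each list, the 5 pairs with the greatest rank difference each way among those within the first 1000 of either list, the 5 highest summits of each list with none of the other within 5000 bp, the 5 best-ranked pairs 250 to 500 bp apart and the 3 stretches with the greatest excess each way. The unmatched summits among the first 100 were named after their values were seen. Members and rules were chosen with earlier results of these data known. The KAT7 splits of pairs and the search for strong summits within 20000 bp were added later. No hg19 sequence or gene annotation was used here, so regions are given by position.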

Additional observations from a re-analysis of the deposited data

How the results depend on the processing

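No paired analysis was possible because each group held 1 library and the labels give no replicate numbers. The matched shares of control and knockdown summits were 35.8% and 33.0% at 100 bp, 56.1% and 51.7% at 250 bp, 87.3% and 75.7% at 1000 bp and 93.5% and 81.1% at 2000 bp. With score minimums of 5, 10 and 20 in both lists they were 73.2% and 62.1%, 74.6% and 53.5%, and 72.5% and 39.0%. With lists of equal length they were 70.1% and 67.5%, and with neighbours within 500 bp reduced to the highest the knockdown share was 63.7%. The control share stayed the higher in each of these settings, but unequal list lengths by themselves lower the share of the longer list. At 100 bp, 10522 summits of each list were matched, so the order of the shares there follows from the lengths alone. At a score of at least 20 the lists held 2961 control and 5507 knockdown summits. The rank rho was 0.79 at 100 bp, 0.75 at 1000 bp, 0.75 at 2000 bp and 0.75 with equal lengths. It was 0.72, 0.67 and 0.70 at score minimums of 5, 10 and 20, where fewer and more alike scores were ranked, and 0.74 without pairs that had KAT7 in both lists. The median pair distance was 36, 69, 104 and 107 bp at 100, 250, 1000 and 2000 bp, which the limit itself sets, and 81.5, 71 and 57 bp at score minimums of 5, 10 and 20. It was 95 bp with neighbours reduced and 104 bp without pairs that had KAT7 in both lists. Control-only stretches numbered 7761, 1589 and 1088 at gaps of 500, 2000 and 5000 bp and 1174 at a score of at least 10. Knockdown-only stretches numbered 11082 and 4158 at gaps of 500 and 5000 bp, and stretches of both lists 7293 at a score of at least 10. In each of these settings knockdown-only stretches outnumbered control-only ones, and among stretches of both lists those with more control summits outnumbered those with more knockdown summits, by 414 to 328 at a score of at least 10 and by 1401 to 580 at a gap of 500 bp. The unknown depth of the libraries limits every comparison of list lengths and numbers of summits, since a deeper library can list more and weaker summits, and it was not tested.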
